A study of Mus musculus with 12 samples.

Results

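The 10 genes described here are negative regulators of T cell receptor signalling: Cd5, Ptpn6, Csk, Cblb, Ubash3a, Ubash3b, Sla, Dgka, Dgkz and Spry1. They were chosen by name, each had 1 row in the array table, and all 10 were found among the 19505 genes tested. The cells were regulatory T cells, a CD4 lineage that holds other immune cells in check, sorted from lymph nodes and labelled CD4+ CD8- CD25+ CD45RBlo; the antibodies that the sort protocol lists are against CD4, CD8 and CD45RB. One group of 6 arrays came from NOD females, a strain prone to autoimmune diabetes. The other group of 6 came from females labelled NOD.Drak2-/-, and all mice were aged 4 to 8 weeks, with 1 mouse per array and no treatment named in the labels. Drak2 is the kinase encoded by Stk17b, itself known to restrain signalling from the T cell receptor, and the comparison addresses whether other brakes on the receptor differ in level when Drak2 is lost. The labels do not say how the Drak2 allele was made, or in which cells it is lost.

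A T cell receptor that meets its ligand starts a chain of tyrosine phosphorylation by Lck and ZAP-70, which leads through phospholipase C to diacylglycerol, calcium and the Ras pathway. Each step has brakes. Csk and the SHP-1 phosphatase keep the first kinases in check, Cbl-family ubiquitin ligases and the adaptor SLAP remove activated receptor components, the Ubash3 proteins act on ZAP-70 and its partners, diacylglycerol kinases consume diacylglycerol, and Sprouty proteins damp the Ras pathway. Regulatory T cells depend on receptor signals for their function, and many of these brakes are themselves set by the strength of such signals.

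Values are log2 array values, in which a difference of 1 is a 2-fold change, and they are compared between genotypes for 1 gene at a time, since rows of different genes are not on a common scale. All 10 regulators were measured above background: each lay above the brightest background row in 12 of 12 arrays. That row, a set of probes with no target in the genome, had the highest mean of the background rows, 5.87. Each array was compared with its own value of that row. Array medians lay between 5.22 and 5.34 in NOD and between 5.18 and 5.24 in NOD.Drak2-/-. The main fit did not correct for this, and a fit with each array centred on its median was run as an alternative. Of the markers that define the cells, Cd4, Cd3e, Ctla4 and Ikzf2 were above that row in 12 of 12 arrays. Il2ra, which encodes CD25, was above it in 0 of 12, and Foxp3 was looked for but was not among the genes tested. Of 13 measured genes listed as markers of regulatory T cells, 12 were above background. That list includes Cd4 and Cd3e, which other T cells also express. Stk17b was 10.52 ± 0.21 in NOD and 10.25 ± 0.15 in NOD.Drak2-/- (SD, n = 6 each), a difference of -0.27 (SE 0.12, adjusted p = 0.517 in limma), with 6 of 6 NOD.Drak2-/- arrays below the NOD mean and overlapping groups. Where its probes lie relative to the deleted part is not known here, so it does not check the labels.

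None of the 10 regulators passed the test of a difference between the genotypes. With a limma adjusted p under 0.05 as the threshold, 0 of 10 passed in either direction, beside 0.0205% of all genes (4 of 19505; 0.0154% higher and 0.00513% lower in NOD.Drak2-/-), and 0 of 10 had an unadjusted p under 0.05, beside 9.43% of all genes. Adjusted p-values ran from 0.643 to 0.993. The NOD and NOD.Drak2-/- values overlapped for 10 of 10 genes, and 0.513% of all genes had groups that did not overlap. In bulk samples, fewer cells of a type and less RNA per cell cannot be told apart. Differences, taken as NOD.Drak2-/- minus NOD throughout, ran from -0.19 to 0.16, with 6 positive and 4 negative and a median of 0.02, beside -0.02 over all genes. That median was 0.084 with each array centred on its own median and -0.016 after quantile normalization, so its sign is not fixed by these data. The median size of the difference, whatever its sign, was 0.058, beside 0.128 over the 8128 genes above background. These sizes are from the main fit and depend on the scaling. Centring each array on its median raised all 10 differences equally. Positive ones grew, such as Dgkz from 0.041 to 0.107. Negative ones shrank or turned, such as Spry1 from -0.19 to -0.12. The median size under that scaling was not worked out. The median SD within a genotype was 0.178 for the 10 genes and 0.258 for genes above background, which were not matched for level. Ptpn6 (0.442), Ubash3b (0.327) and Dgkz (0.262) lay above the latter value.

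The intervals bound how large a change these arrays leave room for. For 8 of 10 genes the 95% interval lay within 0.5 either way on the log2 scale, which is 1.41-fold, and for all 10 it lay within 1, a 2-fold change. These intervals are for single genes and are not widened for the number of genes looked at. A p above the threshold does not show that the levels were equal, and protein level, phosphorylation and location were not measured.

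**Figure D1:**
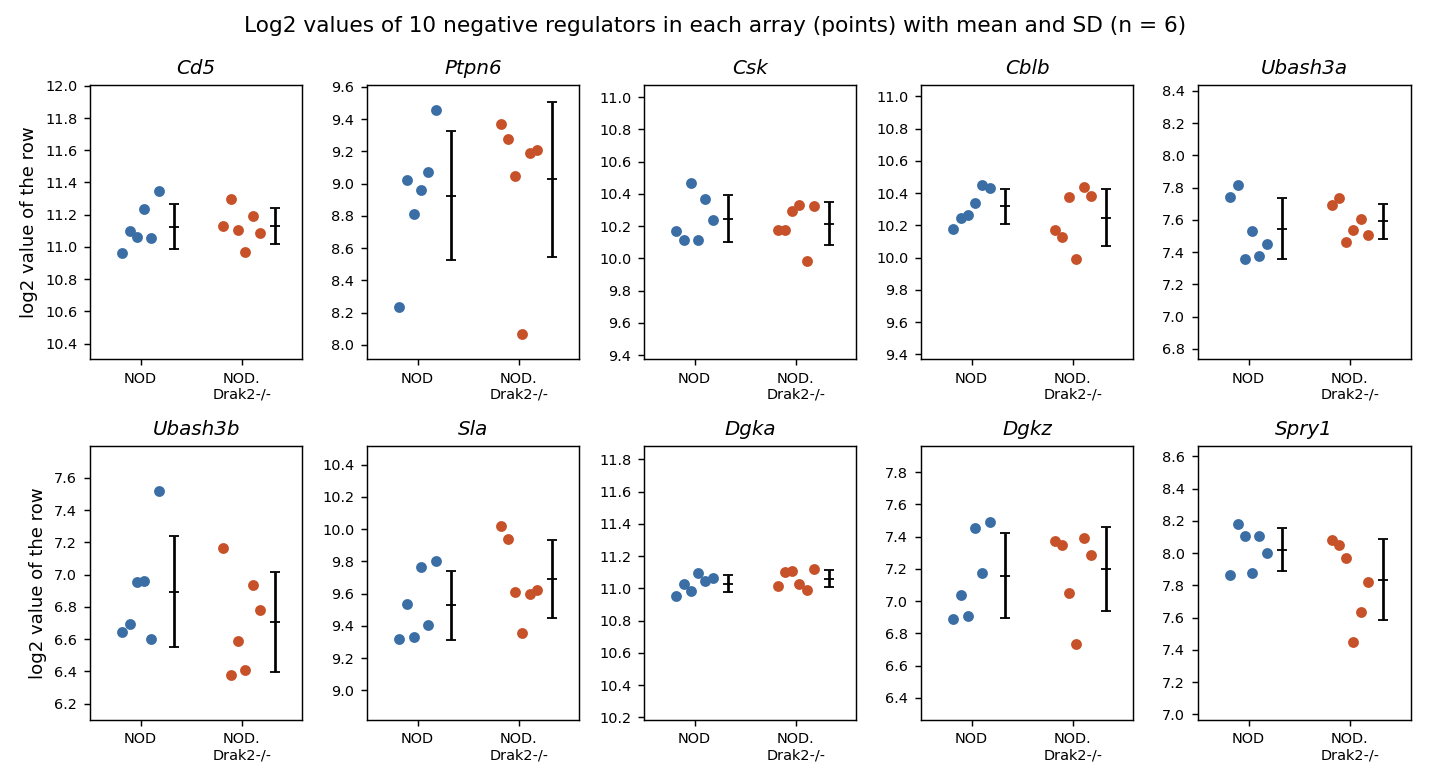
Log2 value of each negative regulator (vertical axis, each panel spanning the same height in log2 units) in the 6 NOD and 6 NOD.Drak2-/- arrays (points), with the mean and SD beside them. The genotypes overlap for all 10 genes, and the widest scatter is that of Ptpn6, from 8.07 to 9.45.

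**Figure D2:**
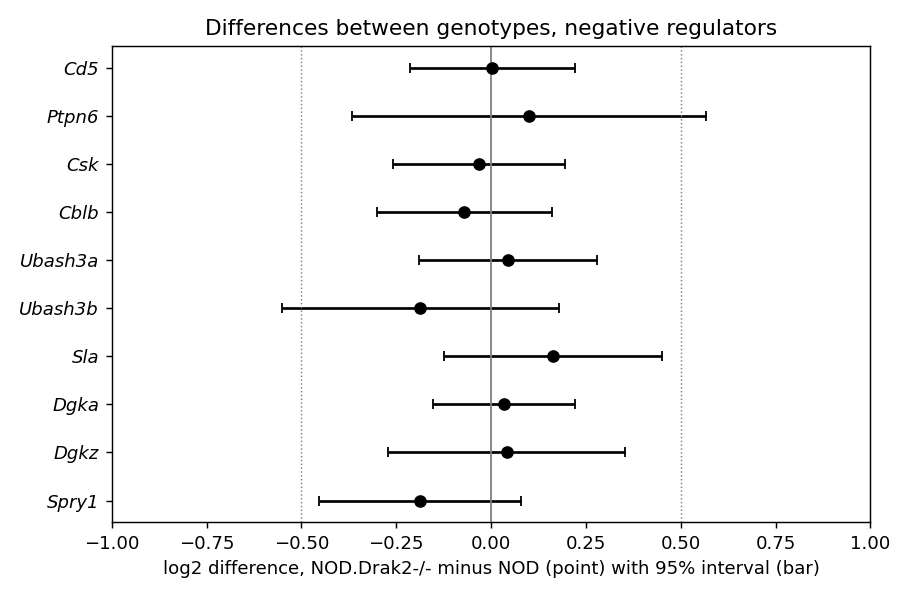
Log2 difference of each negative regulator, NOD.Drak2-/- minus NOD (horizontal axis), with its 95% interval from limma. Dotted lines mark 0.5 either way, which 8 of the 10 intervals do not cross, and all 10 intervals include 0.

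In the main fit, Cd5 had the difference nearest to 0 of the 10 genes. With each array centred on its median, Cblb was nearest, at -0.005, and Cd5 was 0.069. Cd5 encodes a surface receptor whose level is known to follow the strength of T cell receptor signals and which brings inhibitory enzymes to the receptor. Cd5 ran from 10.96 to 11.35 with a median of 11.08 in NOD, and from 10.97 to 11.30 with a median of 11.12 in NOD.Drak2-/-. The groups covered nearly the same range, with 3 of 6 NOD.Drak2-/- arrays above the NOD mean. Its difference was 0.00 (SE 0.10, 95% interval -0.21 to 0.22, adjusted p = 0.993 in limma), so the interval reaches a 1.17-fold change at most. Cd6, the neighbouring receptor of the same family, differed by -0.06, and the change of Cd5 relative to that of Cd6 was 0.06 (SE 0.07, exact permutation p = 0.398).

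Csk, the kinase that phosphorylates the inhibitory tyrosine of Lck, ran from 10.11 to 10.47 with a median of 10.21 in NOD. In NOD.Drak2-/- it ran from 9.98 to 10.33 with a median of 10.23. Replicate 5 of NOD.Drak2-/- was the only array of that group below all NOD arrays. The difference was -0.03 (SE 0.11, interval -0.26 to 0.19, adjusted p = 0.935 in limma).

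Ptpn6, which encodes the tyrosine phosphatase SHP-1, had the widest scatter of the 10 genes, with an SD within genotype of 0.442. It ran from 8.23 to 9.45 with a median of 8.99 in NOD, and from 8.07 to 9.37 with a median of 9.20 in NOD.Drak2-/-. A single array in each genotype lay low: NOD replicate 1 at 8.23 and NOD.Drak2-/- replicate 4 at 8.07, while the other arrays lay between 8.81 and 9.45. The difference was 0.10 (SE 0.22, interval -0.37 to 0.57, adjusted p = 0.899 in limma). It was -0.04 without NOD replicate 1, 0.29 without NOD.Drak2-/- replicate 4 and 0.15 without both. Among the alternatives run, its sign turned only without NOD replicate 1, so the sign rests on that array. Its relative Ptpn11, the phosphatase SHP-2, differed by 0.17, and the changes of the pair differed by -0.07 (SE 0.27, exact permutation p = 0.673).

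The ubiquitin ligase and adaptor that remove receptor components did not pass either. Cblb, the ligase that sets the need for CD28 costimulation in T cells, ran from 10.17 to 10.45 with a median of 10.30 in NOD, and from 9.99 to 10.44 with a median of 10.27 in NOD.Drak2-/-. Its groups shared most of their range, with 3 of 6 NOD.Drak2-/- arrays below the NOD mean and a difference of -0.07 (SE 0.11, interval -0.30 to 0.16, adjusted p = 0.852 in limma). Its relative Cbl differed by 0.19 (SE 0.11, adjusted p = 0.606 in limma). The change of Cblb relative to that of Cbl was -0.26 (SE 0.12, exact permutation p = 0.0758, adjusted p = 0.47 over the 7 related pairs compared).

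Sla, which encodes the adaptor SLAP that guides Cbl to the receptor's zeta chain, had the largest positive difference. It ran from 9.32 to 9.80 with a median of 9.47 in NOD, and from 9.36 to 10.02 with a median of 9.62 in NOD.Drak2-/-. Replicates 1 and 2 of NOD.Drak2-/-, at 10.02 and 9.94, lay above all NOD arrays, and 5 of 6 lay above the NOD mean. The difference was 0.16 (SE 0.14, interval -0.12 to 0.45, adjusted p = 0.71 in limma). It was 0.27 (SE 0.11, adjusted p = 0.33 in limma) with the background GC difference, defined with the array-wide values further on, as a covariate, a setting chosen after seeing the data and the only one run under which a regulator had an unadjusted p under 0.05. Sla2, the related adaptor SLAP-2, differed by -0.09, and the changes of the pair differed by 0.26 (SE 0.16, exact permutation p = 0.134, adjusted p = 0.47).

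The Ubash3 genes encode proteins with a phosphatase-like domain, of which the Ubash3b product is known as the more active phosphatase towards ZAP-70. Ubash3a ran from 7.36 to 7.81 with a median of 7.49 in NOD, and from 7.46 to 7.73 with a median of 7.57 in NOD.Drak2-/-, a range that lies wholly inside that of NOD. Its difference was 0.05 (SE 0.11, interval -0.19 to 0.28, adjusted p = 0.91 in limma). Ubash3b ran from 6.60 to 7.52 with a median of 6.82 in NOD, and from 6.38 to 7.16 with a median of 6.68 in NOD.Drak2-/-. NOD replicate 6, at 7.52, stood above the other arrays of both genotypes. The difference of Ubash3b was -0.19 (SE 0.17, interval -0.55 to 0.18, adjusted p = 0.736 in limma), and -0.06 without NOD replicate 6. The changes of Ubash3a and Ubash3b differed by 0.23 (SE 0.22, exact permutation p = 0.331, adjusted p = 0.697).

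The diacylglycerol kinases end the lipid signal that activates Ras and protein kinase C in T cells. Dgka was the steadiest of the 10 genes, with an SD within genotype of 0.054. It ran from 10.95 to 11.10 with a median of 11.03 in NOD, and from 10.99 to 11.12 with a median of 11.06 in NOD.Drak2-/-. The groups overlapped almost wholly, and the difference was 0.03 (SE 0.09, interval -0.15 to 0.22, adjusted p = 0.917 in limma). Dgkz ran from 6.89 to 7.49 with a median of 7.11 in NOD, and from 6.74 to 7.39 with a median of 7.32 in NOD.Drak2-/-. NOD.Drak2-/- replicate 4 was the lowest array for Dgkz, as it was for Ptpn6. The difference of Dgkz was 0.04 (SE 0.15, interval -0.27 to 0.35, adjusted p = 0.94 in limma). The changes of Dgka and Dgkz differed by -0.01 (SE 0.14, exact permutation p = 0.95).

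Spry1, a Sprouty gene that damps the Ras and MAP kinase pathway, had the smallest p of the 10. It ran from 7.86 to 8.18 with a median of 8.05 in NOD, and from 7.45 to 8.08 with a median of 7.90 in NOD.Drak2-/-. Replicates 4, 5 and 7 of NOD.Drak2-/-, at 7.45, 7.63 and 7.82, lay below all NOD arrays, whereas replicates 1 to 3, at 8.08, 8.05 and 7.97, lay within them. The difference was -0.19 (SE 0.13, interval -0.45 to 0.08, adjusted p = 0.643 in limma; two-sided exact permutation p = 0.143), and -0.11 without NOD.Drak2-/- replicate 4. Those 3 low arrays also had 3 of the 4 smallest background GC differences, and with that measure as a covariate the difference was also -0.11; its part in the result was not tested. Spry2 differed by -0.28 and Spry4 by -0.23 (adjusted p = 0.641 and 0.586 in limma). Spry4 lay below the brightest background row in all 12 arrays and Spry2 lay above it in 1.

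Of the 10 regulators, Cd5, Ptpn6, Sla and Dgkz rose and fell together from array to array. Over the 45 pairs of the 10 genes and all 12 arrays, 6 pairs had an adjusted p under 0.05, and these are the 6 pairs among Cd5, Ptpn6, Sla and Dgkz. Their Pearson r ran from 0.74 to 0.85 (100000 permutations, adjusted p from 0.0054 to 0.0327) and their Spearman rho from 0.71 to 0.87 (adjusted p from 0.0198 to 0.0835). The highest was Cd5 with Dgkz, r = 0.85 and rho = 0.87 (permutation p = 0.00044 for each, n = 12). Ptpn6 with Dgkz gave r = 0.85, rho = 0.76, and Sla with Dgkz gave r = 0.81, rho = 0.80. Without the 2 arrays farthest from the median of the first gene, r of the 6 pairs ran from 0.70 to 0.87. The arrays left out differed between pairs. NOD replicate 1 and NOD.Drak2-/- replicate 4 were left out only for Ptpn6 with Dgkz (r = 0.72) and Ptpn6 with Sla (r = 0.73). Both arrays stayed in for Sla with Dgkz and for the pairs of Cd5. Within NOD, r of the 6 pairs ran from 0.71 to 0.95 (exact permutation p from 0.00278 to 0.0944, n = 6), and within NOD.Drak2-/- from 0.70 to 0.94 (exact permutation p from 0.0125 to 0.122, n = 6). The 6 pairs were picked by their adjusted p over these same 12 arrays, so these values are no separate test.

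Many other genes followed these regulators as closely. Among genes above background, between 0.738% and 9.60% correlated at least as highly with one gene of the pair. The background GC difference is the mean of the 8 background rows richest in G and C minus the mean of the 8 poorest, a measure of how strongly base composition alone affects the signal of an array. It was smallest in NOD replicate 1 and NOD.Drak2-/- replicate 4, at 2.75 in each, which were the 2 lowest arrays for Ptpn6, Cd5 and Dgkz, and it ran up to 3.29 in NOD replicate 6, the highest array for these 3 genes. After a linear fit of each gene to this measure, chosen after seeing the data, r of the 6 pairs ran from 0.57 to 0.80. The part of base composition in these correlations was not tested further. At the other end, Csk with Ubash3a had the lowest r, which did not pass (r = -0.69, rho = -0.71, permutation p = 0.0129 and 0.013, adjusted p = 0.0832 and 0.0835 over the 45 pairs, n = 12). It was -0.74 without the 2 arrays outermost for Csk, -0.79 within NOD and -0.55 within NOD.Drak2-/-. Csk with Dgkz (r = -0.49) and Cblb with Ubash3a (r = -0.48) followed, each with an adjusted permutation p of 0.288.

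**Figure D3:**
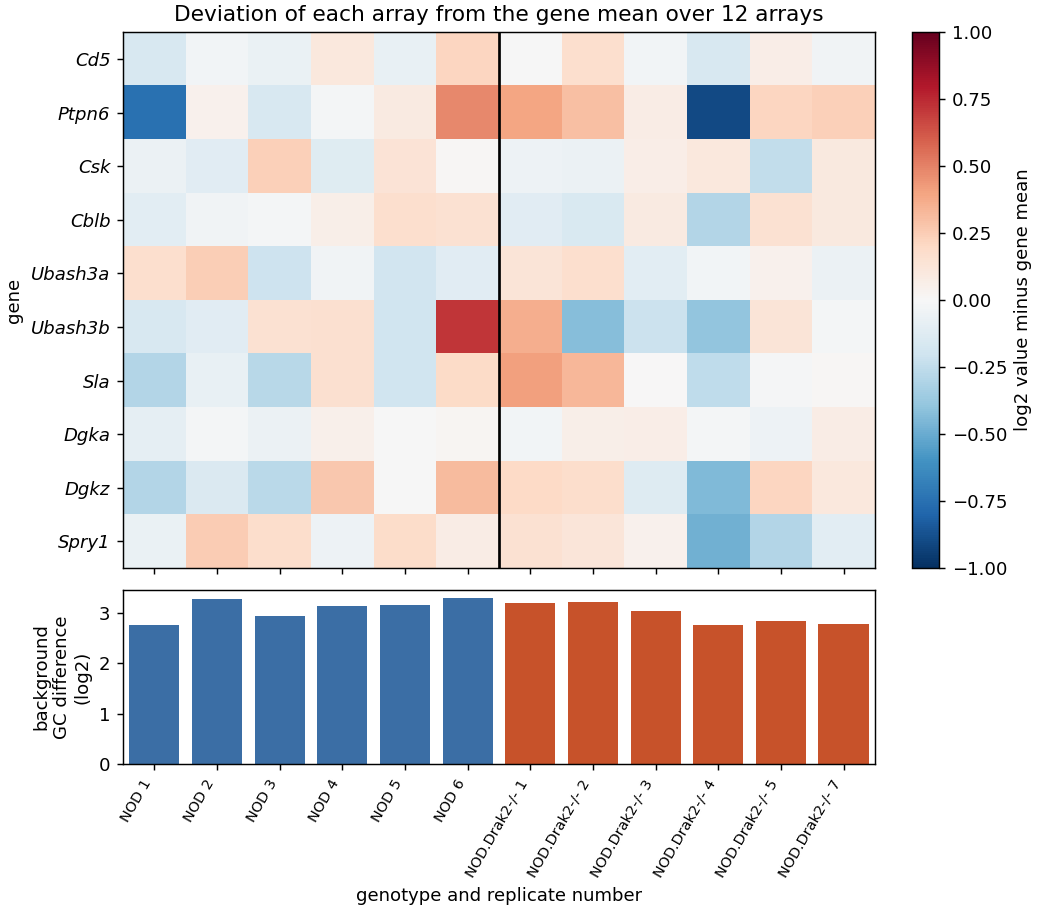
Upper panel, log2 value of each regulator minus its mean over all 12 arrays (colour), by gene and array; lower panel, the background GC difference of each array in log2 units. NOD replicate 1 and NOD.Drak2-/- replicate 4 are low for Ptpn6, at 8.23 and 8.07, and have the smallest background GC difference, 2.75 in each.

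**Figure D4:**
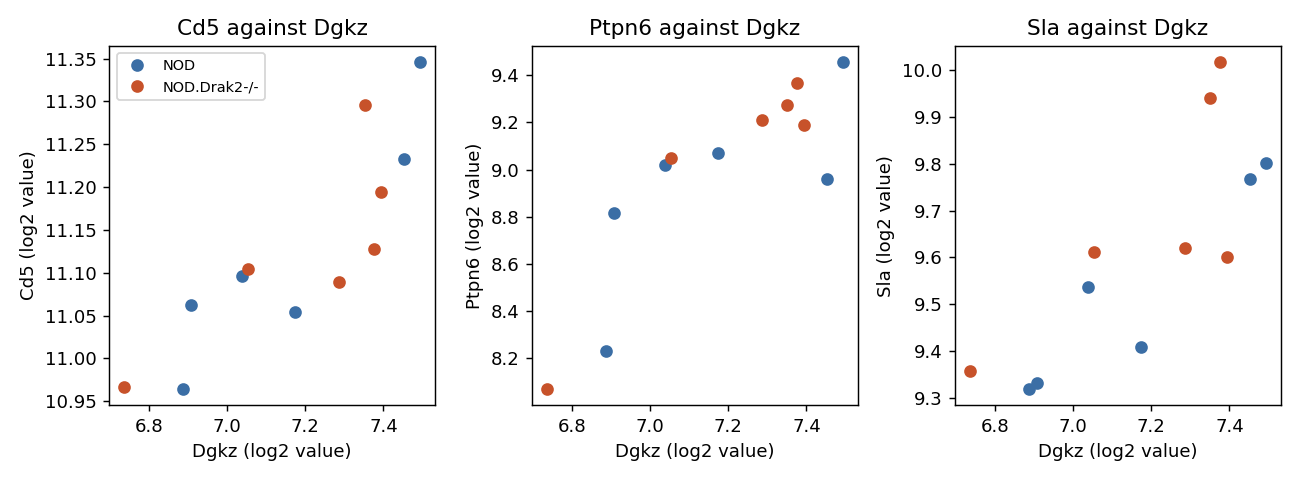
Log2 values of Cd5, Ptpn6 and Sla (vertical axes) against that of Dgkz (horizontal axis), 1 point per array coloured by genotype. The points of both genotypes run along 1 rising band, with r of 0.85, 0.85 and 0.81 over the 12 arrays.

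The upstream sequences of 3 of these 4 genes are shown because their values moved together across arrays. Sla is named only. Windows of 250 bases before a start site were taken from RefSeq for build GRCm38.p6, and 9 of the 10 regulators had 1 or more, 15 windows in all. Capitals mark 2 short words chosen after seeing the sequences, searched on both strands: GGAAGT (reverse complement ACTTCC), a core that ETS factors bind, and CAGGTG (reverse complement CACCTG), an E-box form.
Cd5 (GRCm38.p6 chr19:10738975-10739224, minus strand): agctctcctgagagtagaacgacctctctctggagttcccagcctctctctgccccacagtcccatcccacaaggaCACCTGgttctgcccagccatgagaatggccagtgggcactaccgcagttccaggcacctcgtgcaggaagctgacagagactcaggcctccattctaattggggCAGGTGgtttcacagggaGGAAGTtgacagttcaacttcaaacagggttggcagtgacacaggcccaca
Ptpn6 (GRCm38.p6 chr6:124738710-124738959, minus strand): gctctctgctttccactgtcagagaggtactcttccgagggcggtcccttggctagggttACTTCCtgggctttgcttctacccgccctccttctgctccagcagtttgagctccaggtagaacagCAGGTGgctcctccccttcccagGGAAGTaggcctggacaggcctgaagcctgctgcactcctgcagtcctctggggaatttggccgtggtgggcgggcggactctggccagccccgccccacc
Dgkz, the more upstream of its start sites listed (GRCm38.p6 chr2:91963564-91963813, minus strand): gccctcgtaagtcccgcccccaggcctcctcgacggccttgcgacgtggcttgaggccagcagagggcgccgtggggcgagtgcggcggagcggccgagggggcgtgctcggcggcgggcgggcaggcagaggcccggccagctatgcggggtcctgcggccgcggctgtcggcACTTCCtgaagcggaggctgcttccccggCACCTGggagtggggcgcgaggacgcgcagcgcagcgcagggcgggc
Each of these windows holds both words, but the words were chosen after seeing them, so this is no test. The other window listed for Dgkz holds the ETS core and lacks the E-box form. Whether these genes share an upstream feature was not tested. GGAAGT occurred in 4 of the 15 windows (of Cd5, Ptpn6 and Dgkz) and in 19.7% of all 32851 windows. CAGGTG occurred in 5 of the 15 (of these 3 genes, Csk and Ubash3b) and in 17.2% of all windows. The AP-1 word TGANTCA, the EGR word GCGNGGGCG and the FOXO word GTAAACA were in 0 of the 15 windows, and in 6.75%, 4.70% and 3.17% of all windows. A match is a description of letters and shows no binding.

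Other genes of the pathway were grouped by role. Relatives of the 10 genes (17 of 18 measured, 10 of them above background) gave 0 calls in limma and 0 genes at an unadjusted p under 0.05, with 9 positive and 8 negative differences and a median of 0.00. Among other brakes on T cell signalling (29 of 30 measured), 0 passed the threshold, 2 had a positive difference and 0 a negative one at an unadjusted p under 0.05, beside 3.74% and 5.69% of all genes. The median was 0.08 beside -0.02 over all genes, with 19 positive and 10 negative differences. Pik3ip1, an inhibitor of PI3 kinase that quiescent T cells express, was 8.47 ± 0.21 in NOD and 8.93 ± 0.28 in NOD.Drak2-/- (SD, n = 6; difference 0.46, SE 0.14, adjusted p = 0.469 in limma), with 6 of 6 NOD.Drak2-/- arrays above the NOD mean but overlapping groups. Ptpn7, a phosphatase that acts on MAP kinases, differed by 0.38 (SE 0.17, adjusted p = 0.517 in limma). Sh2d2a, the T cell adaptor TSAd, differed by 0.28 (SE 0.14, adjusted p = 0.543 in limma).

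The activating side of the pathway gave no call either. Of the receptor chains, kinases and adaptors that pass the signal on (21 of 24 measured, all 21 above background), 0 passed the threshold and 1 had a positive and 0 a negative difference at an unadjusted p under 0.05, beside 3.74% and 5.69% of all genes. The 1 gene was Grap2, the adaptor Gads that joins LAT to SLP-76, with a difference of 0.28 (SE 0.12, adjusted p = 0.506 in limma). Lcp2, which encodes SLP-76, differed by 0.32 and Cd247, the zeta chain, by 0.35 (adjusted p = 0.567 and 0.591 in limma). The median of these genes was 0.05.

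Genes that receptor signals induce held the largest single differences of the 4 pathway lists, again without a call. Of 16 measured, 0 passed, and 3 had a negative and 0 a positive difference at an unadjusted p under 0.05, beside 5.69% and 3.74% of all genes. The list median was -0.05. Dusp4 and Dusp5, phosphatases that act on MAP kinases, differed by -0.49 (SE 0.12) and -0.53 (SE 0.15), with adjusted p of 0.393 and 0.443 in limma. Nr4a2, an orphan nuclear receptor, differed by -0.58 (SE 0.19, adjusted p = 0.469 in limma). For Dusp4 and Nr4a2, 6 of 6 NOD.Drak2-/- arrays lay below the NOD mean, and for Dusp5 5 of 6.

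**Figure D5:**
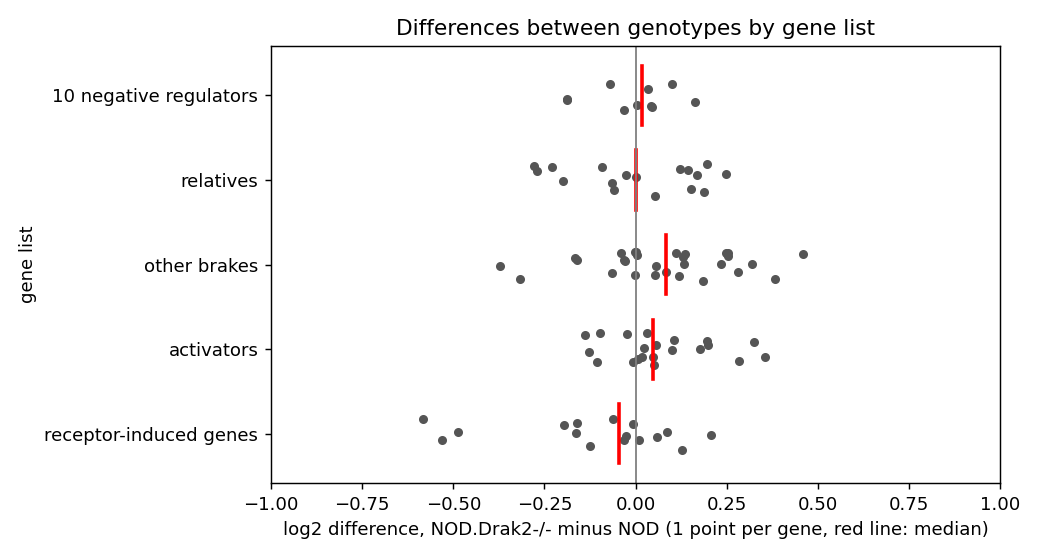
Log2 difference, NOD.Drak2-/- minus NOD (horizontal axis), of each measured gene (points) in 5 gene lists (vertical axis), with the list median as a red line. The 10 negative regulators lie between -0.19 and 0.16, and medians run from -0.05 for receptor-induced genes to 0.08 for other brakes.

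Several of the 10 genes are also expressed by other lymphoid and myeloid cells, so markers of such cells are given beside them. None of the markers in these 4 lists passed the threshold in limma. Of 11 measured B cell markers 2 were above the brightest background row, and their mean per array ran from 4.89 to 5.29 in NOD and from 4.86 to 5.58 in NOD.Drak2-/-. Their differences ran from -0.54 to 0.48, with 4 positive and 7 negative and a median of -0.04. Of these, 1 positive and 2 negative ones had an unadjusted p under 0.05, beside 3.74% and 5.69% of all genes. The same shares of all genes apply to the lists that follow. Of 13 myeloid and dendritic markers 1 was above it, Cst3, with array means of the list from 4.38 to 4.71 and from 4.45 to 4.81. Their differences ran from -0.27 to 0.55, with 9 positive and 4 negative and a median of 0.07, and 1 in each direction had an unadjusted p under 0.05. Of 7 CD8 T and NK cell markers 3 were above it, with array means from 5.00 to 5.44 and from 4.93 to 5.28. Their differences ran from -0.67 to 0.42, with 4 positive and 3 negative and a median of 0.03, and 1 in each direction had an unadjusted p under 0.05. Nkg7, the brightest of them, was 8.20 ± 0.24 in NOD and 7.53 ± 0.42 in NOD.Drak2-/- (SD, n = 6; difference -0.67, SE 0.18, adjusted p = 0.429 in limma). Of 10 stromal and endothelial markers 3 were above it, led by Pecam1, with array means from 5.17 to 5.50 and from 5.13 to 5.23. Their differences ran from -0.31 to 0.22, with 2 positive and 8 negative and a median of -0.11, and 0 had an unadjusted p under 0.05. Fcmr was the brightest B cell marker, at 6.55 ± 0.21 and 6.51 ± 0.12. With the B cell marker mean as a covariate 0 of the 10 regulators passed, as in the main fit. That outcome cannot check for B cells, since none passed without it and most of these markers lay below background. The part of the other cell types in these values was not tested.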

How the data were processed

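Per the labels' protocols, sorted cells gave RNA that was labelled with a whole-transcript kit and hybridised to 1-colour arrays, 1 mouse each. The authors deposited a table of log2 values, made with oligo and RMA per the submitters' processing notes; their versions were not stated. RMA forces arrays to a common distribution, which can shrink shifts shared by many genes. The table held 29129 rows, of which 19572 carried exactly 1 gene symbol; the brightest row was kept per gene, which left 19505. No filter was applied to dim genes. Arrays have no counts, and their number limits the precision.

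The genotypes were compared in limma 3.58.1 (R 4.3.3; lmFit and eBayes, no covariate, all 12 arrays), with Benjamini-Hochberg adjustment over all 19505 genes and a threshold of 0.05. Single values were compared by two-sided exact permutation over 924 regroupings (smallest possible p 0.0022). Steps were tested on simulated data. The same replicate numbers in both groups mark no shared animal or batch in the labels. The members and gene lists were chosen with earlier results of these data known. Named genes were all 10 members, Stk17b, sort and lineage markers, of each pathway list the genes past the threshold or else the 3 with the smallest p, the gene with the highest mean in each list of other cell types, and the member pairs with the 3 highest and 3 lowest r. Genes compared as relatives of a member belong to 7 pairs set at the same time. Alternatives changed the scaling, the dim-gene filter, the variance model, the block, covariates, the row rule and the arrays used.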

Additional observations from a re-analysis of the deposited data

Results flagged for a closer look

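In 64 groups of 6 values (32 genes in 2 genotypes), 5 had a lowest or highest array that stood apart from the rest by more than Dixon's 95% limit; chance alone flags about 1 in 20 groups. Ptpn6 was 8.07 in NOD.Drak2-/- replicate 4, where the next array was 9.05. Stk17b was 9.97 in NOD.Drak2-/- replicate 2, next to 10.21. Spry2 was 5.95 in NOD replicate 5, next to 5.17. Grap2 was 10.39 in NOD replicate 6, next to 10.10. Cd3e was 10.93 in NOD replicate 1, next to 11.03.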

How the results depend on the processing

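Under all 22 alternatives run, 12 of which left out 1 array each, 0 of the 10 regulators passed the threshold, and the lowest adjusted p in limma was 0.33. Of 220 values, 206 kept their sign and 14 did not. Some of the 206 were fixed in advance. The dim-gene filter and the changes of the variance model cannot alter a regulator's difference. Nor can averaging the rows of a gene, since each regulator has 1 row. The 5 genes Cblb, Ubash3b, Sla, Dgka and Spry1 kept their sign throughout. Median centring turned Csk to 0.034, and quantile normalization turned Ubash3a to -0.010 and Dgkz to -0.022. Leaving out 1 array gave -0.030 to 0.048 for Cd5, -0.038 to 0.29 for Ptpn6, -0.059 to 0.014 for Csk and -0.013 to 0.13 for Dgkz, and -0.03 to 0.04 for the median of the 10, which was 0.084 with median centring, -0.016 with quantile normalization and 0.014 to 0.050 under the other alternatives. With the background GC difference as a covariate, added after seeing the data, 1 regulator (Sla) had an unadjusted p under 0.05. The number of all genes past the threshold, 4, was 0 in a fit with no moderation, 1 with the B cell marker mean, 7 with the background GC difference, 1 without both arrays lowest for Ptpn6 (the last 2 added after seeing the data) and 1 to 2 when 1 array was left out. The cause was not tested. A replicate block, on the 10 arrays numbered 1 to 5, called 0 genes and 0 regulators. Same-numbered arrays correlated at -0.18 to 0.09 in their deviations, and 0 of 5 NOD arrays correlated best with their own number. These values show no pairing by number. So few arrays cannot exclude a shared batch, and the labels state no pairing.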
